A study of Mus musculus with 3 samples.

Results

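Resting B cells of mouse blood in which no transcript of CD23 was counted are described here across 3 droplet libraries, with 1 library for each group. CD23 is the low-affinity receptor for IgE, and its gene is Fcer2a. Blood of C57BL/6J mice was digested with hyaluronidase and DNase I and sequenced with 10x Chromium 3′ v3 chemistry. The groups are labelled Sham, CLP and HDCA+CLP, each at 12 h. The treatment labels add CMC to the CLP group and HDCA to the HDCA+CLP group, while that of the Sham group names no vehicle. The abbreviations are not expanded in the labels and are taken to mean caecal ligation and puncture, in which gut bacteria leak into the abdomen and cause sepsis, carboxymethylcellulose, a common vehicle, and hyodeoxycholic acid, a bile acid. The labels give neither the number of animals behind each library nor their age or sex. Since 1 library stands for each group, differences between groups have no replicate check, no test was made, and the 95% intervals given below cover counting error alone.

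Members were chosen cell by cell from their counts of unique molecular identifiers (UMIs, one for each captured transcript). A member had at least 500 UMIs, at least 200 genes, at most 10% mitochondrially encoded UMIs, under 5% of UMIs from S100a8 and S100a9, under 2 UMIs of Cd3d, Cd3e, Cd3g and Trac, at least 3 UMIs of the B cell genes Cd79a, Cd79b and Ms4a1, under 3 UMIs of the activation genes Irf4, Egr2, Fabp5 and Bcl2a1d, and 0 UMIs of Fcer2a. The rule found 1585 cells among 29754 that passed the cell filters. There were 1068 of 6891 in Sham, 254 of 10840 in CLP and 263 of 12023 in HDCA+CLP. Cells that met every other condition but had an Fcer2a UMI numbered 1647, 10 and 9 in the same order, and the union of both classes is called resting B cells below.

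As background, CD23 is carried by most follicular B cells, the recirculating naive cells that also display IgD and complement receptor 2. Marginal zone B cells and B-1 cells carry little or none of it, and both are innate-like B cells that answer microbial antigens without much T cell help. Marginal zone B cells of mice stay mainly in the spleen, whereas B-1 cells are found mainly in the body cavities. Transitional cells on their way from the bone marrow have little CD23, and activated or memory B cells can lose it. In a droplet experiment a cell can also lack an Fcer2a UMI by chance when few of its transcripts are captured.

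The members carried the transcripts of the B lineage that the rule did not use. The summed level of 20 such genes, among them Pax5 and Ebf1 (transcription factors of B cell identity) and Cd74 (the invariant chain of MHC class II), was 30786 CPM in Sham, 14591 CPM in CLP and 17063 CPM in HDCA+CLP, where CPM are UMIs per 1e+06 UMIs of the members of a library. In the T cell, NK cell, monocyte and neutrophil gates the same sum was at most 2093 CPM. Members had medians of 4183.5, 3196 and 2695 UMIs and of 28, 10 and 8 UMIs of Cd79a, Cd79b and Ms4a1 in Sham, CLP and HDCA+CLP. The cells of CLP and HDCA+CLP blood therefore lay nearer to the limit of the rule. Exactly 3 UMIs of the B cell genes were held by 4, 20 and 16 members, and 4, 24 and 17 cells missed the rule with 2 such UMIs. In Sham, 668 cells just outside the rule had exactly 1 Fcer2a UMI and 979 had more.

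Transcripts of other cells moved with the groups. Of 10840 and 12023 cells kept in CLP and HDCA+CLP, 49.0% and 78.1% lay in the neutrophil gate, against 3.71% in Sham, although the labels call the material mononuclear cells. The summed level of 12 neutrophil genes in members, 2 of which the rule capped, was 265 CPM in Sham, 5545 CPM in CLP and 8182 CPM in HDCA+CLP. S100a8 and S100a9 made up 0.0226%, 0.444% and 0.675% of member UMIs and 36.2% of the UMIs of the neutrophil gate in CLP. At least 3 UMIs of a neutrophil, NK cell, monocyte or platelet list were found in 49, 8 and 2 members. The 8 such cells of CLP had a median of 12785.5 UMIs against 3158 in the other members of that library, and 5 of them held NK cell and 6 held monocyte transcripts. No doublet caller was run, so results that these cells touch are given with and without them. The part of neutrophil transcripts in the differences below was not tested. The T cell list summed to 27.8, 39.8 and 22.4 CPM, and the plasmacytoid dendritic cell list to 204, 161 and 194 CPM, mostly from Tcf4, which B cells also express. In HDCA+CLP 887 of 911 UMIs of the erythroid list came from 1 cell. The libraries shared between 17 and 34 barcodes in each pair, and 12 members had a barcode that another library also held. No barcode was a member in both libraries of a pair.

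B cells without Fcer2a UMIs were a smaller share of blood cells after CLP, and cells with Fcer2a UMIs were nearly missing. Members were 15.5% (exact Clopper-Pearson interval 14.7 to 16.4) of the cells kept in Sham, 2.34% (2.07 to 2.65) in CLP and 2.19% (1.93 to 2.46) in HDCA+CLP. The share was 6.61-fold lower in CLP than in Sham. The denominator differed as well, since it held more neutrophils. Among cells outside the neutrophil gate the shares were 16.1%, 4.60% (4.06 to 5.18) and 9.97% (8.86 to 11.2), which put CLP 3.50-fold below Sham and HDCA+CLP 2.17-fold above CLP. Shares cannot tell a loss of B cells from a gain of other cells, and no absolute counts of cells were used here.

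Cells with Fcer2a UMIs were 23.9%, 0.0923% and 0.0749% of the cells kept in Sham, CLP and HDCA+CLP, a 259-fold lower share in CLP than in Sham. As a result, members were 39.3% (37.5 to 41.2) of resting B cells in Sham but 96.2% (93.1 to 98.2) in CLP and 96.7% (93.8 to 98.5) in HDCA+CLP. The members of the CLP and HDCA+CLP libraries were thus nearly all of their resting B cells, whereas those of Sham were a minority. Over all resting B cells, Fcer2a stood at 297 CPM in Sham (exact Poisson interval 288 to 307), 13.5 CPM in CLP (7.38 to 22.7) and 14.0 CPM in HDCA+CLP (6.98 to 25). Fcer2a UMIs were found in 0.746% of the Sham cells in the T cell gate, which should lack the gene, in 0.0316% in CLP and in 0 of 1394 in HDCA+CLP, which allows a share of up to 0.215%. Median depths of these T cells were 6694, 4784 and 4058.5 UMIs.

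**Figure D1:**
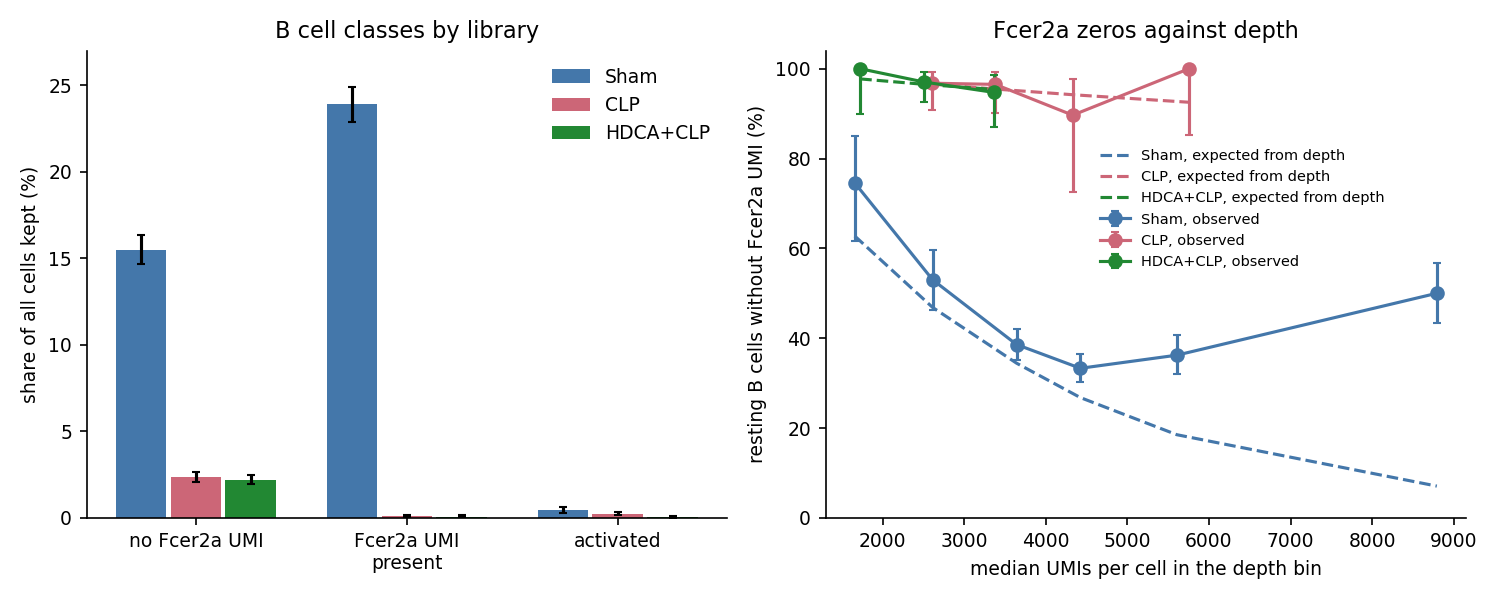
Left, shares of 3 B cell classes among all cells kept (percent) in each library, with exact binomial 95% intervals. Right, the share of resting B cells without an Fcer2a UMI (percent, points with exact binomial intervals) against the median UMIs per cell of each depth bin with at least 20 cells, and the share expected if Fcer2a UMIs followed depth alone (dashed). In Sham the observed share is 50% in the deepest bin, where 7.07% was expected.

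Sham held more Fcer2a zeros than depth alone would give, above all among deep cells. If the Fcer2a UMIs of a library were spread over its resting B cells by depth, 767.7 Sham cells would hold none, and 1068 did, which is 1.39 times as many. In CLP 254 were observed and 250.5 expected, and in HDCA+CLP 263 and 261.2. Fcer2a was thus less evenly spread over cells in Sham than depth would give, while in CLP and HDCA+CLP its few UMIs were too sparse to show such a spread. In Sham cells of 3000 to 4000 UMIs 38.6% lacked Fcer2a, where 34.4% was expected. In those of at least 7000 UMIs 115 of 230 lacked it (50%, 43.4 to 56.6), where 7.07% was expected. Without cells that held other-cell transcripts, the deepest bin still had 98 of 191 cells without Fcer2a (51.3%), against 13.6 cells expected. With each cell thinned to 2000 UMIs, leaving out 59, 16 and 35 shallower cells, 58.1%, 98.0% and 97.0% of resting B cells held no Fcer2a UMI in Sham, CLP and HDCA+CLP.

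Within Sham, most B-1 cell genes were higher and all follicular genes lower in cells without Fcer2a UMIs than in cells with them. Since the rule split these cells on Fcer2a, this comparison is a description. Of 10155 genes with at least 20 UMIs over both classes, 239 (2.35%) were more than 2-fold higher and 102 (1%) more than 2-fold lower in the cells without Fcer2a. After removal of cells with other-cell transcripts, 1.44% of 9897 genes were past 2-fold higher and 1.03% lower. Of 10 B-1 genes measured without those cells, 9 were higher and 5 were past 2-fold. They were Zbtb32, S100a6, Nid1, Anxa2 and Bhlhe41. Over all genes, with no cells removed, the median was 0.03. In cells of at least 7000 UMIs, 98 cells without and 93 with Fcer2a were set side by side. Of 15 B-1 genes 10 were measured there and all 10 were higher, 8 of them past 2-fold, where 2.95% of 6679 genes were past 2-fold higher and 3.56% lower. Zbtb32, Nid1, Spn and Anxa2 had fewer than 20 UMIs in the cells with Fcer2a and so had to be higher to be measured. The other 6 genes, each with at least 20 UMIs in the cells with Fcer2a, were higher too, 4 of them past 2-fold. At all depths 8 genes had at least 20 UMIs in the cells with Fcer2a, of which 7 were higher and 3 past 2-fold. Zbtb32 and Nid1 did not, and so had to be higher to be measured.

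Zbtb32, a transcriptional repressor that restrains B-1 cell and memory B cell responses, stood furthest apart, but was measured only through the cells without Fcer2a. Without cells holding other-cell transcripts it was at 10.6 CPM in the cells without and 0.139 in the cells with Fcer2a UMIs, from 49 UMIs against 1. The log2 ratio was 6.25 (3.70 to 11.58), and in the deepest cells the levels were 51.3 CPM in the cells without and 1.2 in the cells with Fcer2a UMIs. Only 20 Sham resting B cells had a Zbtb32 UMI, and 19 of them (95%, 75.1 to 99.9) lacked Fcer2a, compared with 39.2% of all 2601 cells. These 20 cells were deep, with a median of 10315 UMIs against 4246 overall. Among cells of at least 7000 UMIs, the share without Fcer2a was 51.3%, a closer base than 39.2%. Bhlhe41, a transcription factor needed by B-1a cells, stood at 29.4 CPM in the cells without and 12.4 in the cells with Fcer2a UMIs, a log2 ratio of 1.25 (0.85 to 1.65), and at 80.7 and 25.2 CPM in the deepest cells. Of 164 cells with a Bhlhe41 UMI, 53.7% lacked Fcer2a. S100a6, a calcium-binding protein that is abundant in B-1 and memory B cells and also in myeloid cells, stood at 264 CPM in the cells without and 28.9 in the cells with Fcer2a UMIs, a log2 ratio of 3.19 (2.98 to 3.41), and at 1121 and 116 CPM in the deepest cells. Nid1, which encodes the basement membrane protein nidogen, was at 8.2 CPM in the cells without and 1.67 in the cells with Fcer2a UMIs. Ahnak, a large scaffold protein, was at 80.3 CPM in the cells without and 42.3 in the cells with Fcer2a UMIs. The NK cell gate of Sham held 1061 CPM of Ahnak and the monocyte gate 729. With no cells removed, 14 B-1 genes were measured, and 6 of them reached 20% of their level in every gate of other cells. The median log2 ratio of those 6 was 0.74. Not all B-1 genes were higher, since Ptpn22, a phosphatase that limits antigen receptor signalling, had a log2 ratio of -0.04.

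Marginal zone genes gave a mixed picture. Of 12 measured without cells holding other-cell transcripts, 7 were higher and 2, Fcrl5 and Myof, past 2-fold, with a median log2 ratio of 0.21. Myof had too few UMIs in the cells with Fcer2a and so had to be higher to be measured. The other 11 genes had enough UMIs in the cells with Fcer2a alone. Of these, 6 were higher and 1, Fcrl5, past 2-fold, with a median of 0.07. Fcrl5, an Fc receptor-like inhibitory receptor of marginal zone, B-1 and memory B cells, was at 29.1 CPM in the cells without and 8.34 in the cells with Fcer2a UMIs, a log2 ratio of 1.80 (1.36 to 2.27), and 73 of 114 cells with an Fcrl5 UMI (64.0%) lacked Fcer2a. Cd9, a tetraspanin of marginal zone and B-1 cells, was at 29.8 CPM in the cells without and 15.1 in the cells with Fcer2a UMIs. Cr2, complement receptor 2, is high on marginal zone B cells and moderate on follicular cells, and it was lower in the cells without Fcer2a, at 53.5 CPM in the cells without and 91.3 in the cells with Fcer2a UMIs. Its log2 ratio was -0.77 (-0.99 to -0.56), and -1.81 (-2.52 to -1.15) in the deepest cells. Notch2, the receptor that directs marginal zone fate, and Cd1d1, which presents lipids to NKT cells, had log2 ratios of -0.19 and -0.09. Plac8, a lysosomal protein of unsettled role in B cells, was at 517 CPM in the cells without and 278 in the cells with Fcer2a UMIs.

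All 10 follicular genes were lower in the cells without Fcer2a, with a median log2 ratio of -0.40 without cells holding other-cell transcripts and -0.66 in the deepest cells. Fcer2a itself, used by the rule, is one of them, and it was the member past 2-fold at all depths. Icosl, the ligand of the T cell co-stimulator ICOS, was at 44.7 CPM in the cells without and 68.2 in the cells with Fcer2a UMIs, a log2 ratio of -0.61 (-0.85 to -0.37). Ighd, the constant region of IgD, was at 892 CPM in the cells without and 1193 in the cells with Fcer2a UMIs. The memory list had 3 of 13 genes past 2-fold higher and 0 lower, with a median log2 ratio of 0.26. They were Fcrl5, Lmna, a protein of the nuclear lamina, at 4.1 CPM in the cells without and 0.278 in the cells with Fcer2a UMIs, and S100a4, a calcium-binding protein, at 9.71 CPM in the cells without and 2.78 in the cells with Fcer2a UMIs. The T cell gate of Sham held 110.5 CPM of S100a4. Among inhibitors of cytokine signalling, Cish and Socs2, both targets of STAT5, were past 2-fold higher, but like Lmna they had fewer than 20 UMIs in the cells with Fcer2a and were measured only through the cells without. Cish was at 7.99 CPM in the cells without and 1.39 in the cells with Fcer2a UMIs, and Socs2 was at 4.32 CPM in the cells without and 0.973 in the cells with Fcer2a UMIs. The 13 measured MHC class II genes were lower without exception, by a median log2 ratio of -0.26, and none was past 2-fold. Secondary immunoglobulin classes were rare. Ighg3 had 23 UMIs in the cells without and 1 in the cells with Fcer2a, and Igha had 71 and 33. Of the 28 Ighg3 UMIs in all Sham members, 75% came from 3 cells.

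**Figure D2:**
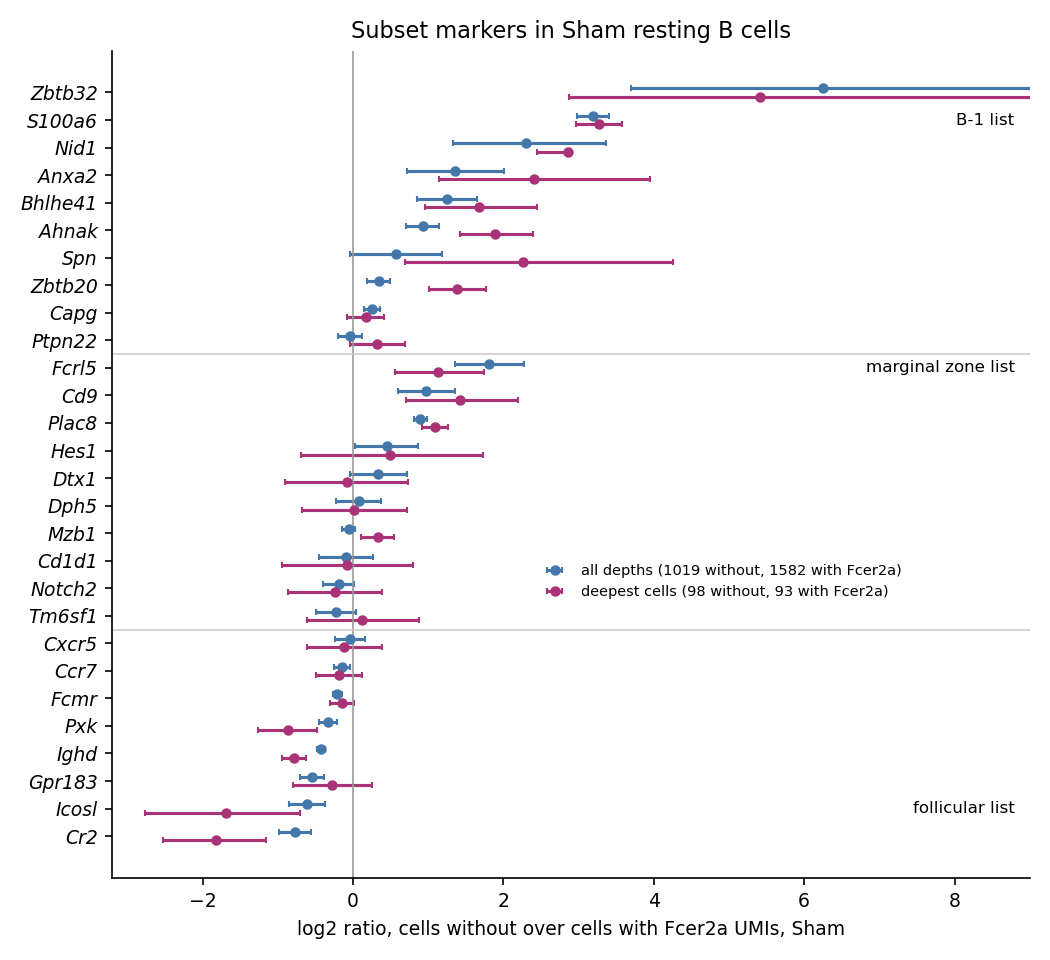
log2 ratio of the CPM of Sham resting B cells without over those with Fcer2a UMIs, for measured genes of the B-1, marginal zone and follicular lists, with 95% intervals for counting error. Blue, cells of all depths without other-cell transcripts; purple, those with at least 7000 UMIs; Cr2 is on both of the last lists, the Zbtb32 intervals run past the axis and the Nid1 value of the deepest cells is against a floor of 3 UMIs. The 10 B-1 genes lie above 0 in the deepest cells and every follicular gene shown lies below 0.

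Among genes with at least 50 CPM that other cells of the library could not readily supply, Ccnd2 ranked first of those higher without Fcer2a. Ccnd2 encodes cyclin D2, the D-type cyclin that B-1 cells keep at rest, and it stood at 220.5 CPM in the cells without and 74.9 in the cells with Fcer2a UMIs, a log2 ratio of 1.56 (1.41 to 1.71). Of 408 cells with a Ccnd2 UMI, 58.3% (53.4 to 63.2) lacked Fcer2a. Pim1, a survival kinase, was at 226 CPM in the cells without and 123 in the cells with Fcer2a UMIs, and Crip1, a LIM domain protein, at 1083 CPM in the cells without and 601 in the cells with Fcer2a UMIs. Iglc1, a lambda light chain constant region whose reads cannot be fully told from those of its near-identical copies, was at 1996 CPM in the cells without and 1043 in the cells with Fcer2a UMIs. That difference depended on depth, since in the deepest cells the log2 ratio of Iglc1 was -0.38. The remaining genes at this end were Rassf4, with a log2 ratio of 1.13, Ppp1r14b with 0.95, Tagln2 with 0.85 and Fam129c with 0.98, and Fam129c was lower, at -0.52, in the deepest cells. In the NK cell gate of Sham Ccnd2 stood at 485 CPM and Tagln2 at 457. The monocyte gate held 2124 CPM of Crip1 and 252 of Rassf4, and the neutrophil gate 358 CPM of Pim1. Each of these lay above the members, while Iglc1, Ppp1r14b and Fam129c lay below them in every gate.

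At the other end, Rflnb, a regulator of the actin-binding protein filamin, was at 35.6 CPM in the cells without and 65.5 in the cells with Fcer2a UMIs, and 26.3% of the 475 cells with an Rflnb UMI lacked Fcer2a. Cd83, a surface protein that stabilises MHC class II on activated B cells, was at 38.8 CPM in the cells without and 68.5 in the cells with Fcer2a UMIs. Neurl3, a ubiquitin ligase, was at 142 CPM in the cells without and 239 in the cells with Fcer2a UMIs, and its log2 ratio was -0.75 (-0.87 to -0.62) at all depths and -1.97 (-2.58 to -1.39) in the deepest cells. Stap1, an adaptor downstream of the B cell receptor, had a log2 ratio of -0.64, Fchsd2, a membrane-bending protein, of -0.63, Stat4, a transcription factor activated by interleukin-12 and type I interferon, of -0.78, and Satb1, a chromatin organiser of lymphocytes, of -0.62. With cells of all depths pooled, each of these differences was under 2-fold.

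Interferon-response genes were higher in the members of the CLP library than in those of Sham. Of 9215 genes with at least 20 UMIs over both libraries, 474 (5.14%) were more than 2-fold higher and 1208 (13.1%) more than 2-fold lower in CLP, and the median log2 ratio over all of them was -0.16. Of 37 measured type I interferon genes, 34 were higher, 25 were past 2-fold and 0 were 2-fold lower, with a median log2 ratio of 1.31. Of 15 measured interferon-gamma genes, 15 were higher and 11 past 2-fold, with a median of 1.41. Among the genes with at least 20 UMIs in Sham alone, which did not need a high level in CLP to be measured, 21 of 32 and 8 of 12 were past 2-fold higher and 0 lower. Both held without the cells that carried other-cell transcripts, at 22 of 35 and 10 of 14 past 2-fold and medians of 1.32 and 1.47, where 4.34% of 8912 genes were 2-fold higher and 14% were 2-fold lower. In HDCA+CLP over Sham, which shares the Sham library with the first comparison, 24 of 37 and 13 of 14 were past 2-fold higher with medians of 1.32 and 2.06, and 5.22% of 9112 genes were past 2-fold higher and 12.6% lower.

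The neutrophils of these libraries expressed such genes as well, and in CLP the neutrophil gate held 279 CPM of Zbp1. Zbp1, a sensor of Z-form nucleic acid that can start inflammatory cell death, stood at 27.6 CPM in Sham, 221 CPM in CLP and 232 CPM in HDCA+CLP. The CLP and HDCA+CLP libraries were both high, and their intervals overlapped. Irf7, the transcription factor that amplifies interferon production, stood at 14.4 CPM in Sham, 96.6 CPM in CLP and 130.4 CPM in HDCA+CLP, and Oas2, which makes the second messenger that activates RNase L, at 1.6 CPM in Sham, 21.9 CPM in CLP and 17.1 CPM in HDCA+CLP. Oas2 had too few UMIs in Sham to be measured there alone, and so had to be higher in CLP to be measured. The immunity-related GTPases Irgm1 and Igtp, which act on vacuoles that hold microbes, stood at 24.6 CPM in Sham, 105 CPM in CLP and 113 CPM in HDCA+CLP and at 11 CPM in Sham, 53.8 CPM in CLP and 72.5 CPM in HDCA+CLP, respectively. Their log2 ratios of CLP over Sham were 2.09 (1.70 to 2.48) and 2.29 (1.72 to 2.86). Plscr1, an interferon-inducible phospholipid scramblase, stood at 9.39 CPM in Sham, 74.7 CPM in CLP and 59.3 CPM in HDCA+CLP. Over all genes, 5.14% were past 2-fold higher in CLP and 13.1% lower. Among genes of MHC class I presentation, 4 of 16 were past 2-fold higher in CLP and 0 lower, with a median of 0.39. They included Tap1, a subunit of the peptide transporter, at 78.2 CPM in Sham, 223 CPM in CLP and 257 CPM in HDCA+CLP, and Nlrc5, the transactivator of MHC class I, at 8.19 CPM in Sham, 32.9 CPM in CLP and 29 CPM in HDCA+CLP.

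Among the genes that other cells could not readily supply, Socs3 ranked first by the bound of its interval nearest to 0. It encodes a feedback inhibitor of cytokine receptors, above all those of the interleukin-6 family. Socs3 stood at 9.19 CPM in Sham, 400.2 CPM in CLP and 371 CPM in HDCA+CLP, a log2 ratio of CLP over Sham of 5.44, with an interval from 5.0 upward to 5.92. Its UMIs were spread over 154 of 254 CLP members and 139 of 263 HDCA+CLP members, against 38 of 1068 in Sham. The neutrophil gate of CLP held 84.8 CPM of Socs3 and the T cell gate 212, both below the members, while the monocyte gate held 463 CPM. Socs1, the corresponding inhibitor of interferon signalling, stood at 21.2 CPM in Sham, 55.8 CPM in CLP and 55.3 CPM in HDCA+CLP.

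Promoters of the interferon lists, whether or not a gene was measured in the members, were read for the response element of interferons and for the palindrome bound by STAT proteins. Sequences are from RefSeq with build GRCm38.p6, and matches on either strand were sought in a window from 250 bases before to 50 bases after each start. A gene counted once if any of its promoters held a match, and the promoters of 1 chromosome were left out. The interferon-stimulated response element, searched as GAAANNGAAA, occurred in 17 of 30 genes of the type I interferon list with a promoter (56.7%). The counts were 11 of 14 for the interferon-gamma list (78.6%) and 0 of 19 for the nuclear respiratory chain genes. The element occurred in 1079 of 27025 genes with a promoter read (3.99%) and in 4.08% of the measured genes among them. The STAT palindrome, searched as TTCNNNGAA, occurred in 9.55% of all genes with a promoter read. It occurred in 7 of 30 of the type I interferon list (23.3%) and in 7 of 14 of the interferon-gamma list (50%). The 2 motifs can overlap. A match is only a match of letters and does not show a bound site. The 3 promoters below belong to genes among the 12 highest in CLP, and capitals mark the matches to either motif. They are chr11:117969367-117969616 on the minus strand with 1 STAT palindrome 154 bases before the start of Socs3, chr11:48871421-48871670 on the minus strand with 2 overlapping response elements 30 and 24 bases before the start of Irgm1, and chr11:58199306-58199555 on the plus strand with 1 response element 34 bases and 1 STAT palindrome 45 bases before the start of Igtp.
Socs3: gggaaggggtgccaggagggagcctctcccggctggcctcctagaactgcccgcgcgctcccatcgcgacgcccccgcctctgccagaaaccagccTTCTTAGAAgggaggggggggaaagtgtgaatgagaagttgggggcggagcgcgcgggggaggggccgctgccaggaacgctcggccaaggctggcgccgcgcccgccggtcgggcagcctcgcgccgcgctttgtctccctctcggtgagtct
Irgm1: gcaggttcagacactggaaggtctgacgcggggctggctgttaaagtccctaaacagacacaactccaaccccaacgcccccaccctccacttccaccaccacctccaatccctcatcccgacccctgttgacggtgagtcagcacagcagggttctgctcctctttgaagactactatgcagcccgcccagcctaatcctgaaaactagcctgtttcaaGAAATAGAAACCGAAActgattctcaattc
Igtp: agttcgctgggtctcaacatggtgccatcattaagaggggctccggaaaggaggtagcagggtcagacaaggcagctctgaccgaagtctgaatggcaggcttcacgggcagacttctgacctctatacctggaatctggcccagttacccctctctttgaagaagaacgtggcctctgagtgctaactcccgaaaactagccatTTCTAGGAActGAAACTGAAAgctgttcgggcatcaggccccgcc
The promoter of Irf7 held neither motif in this window.

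**Figure D3:**
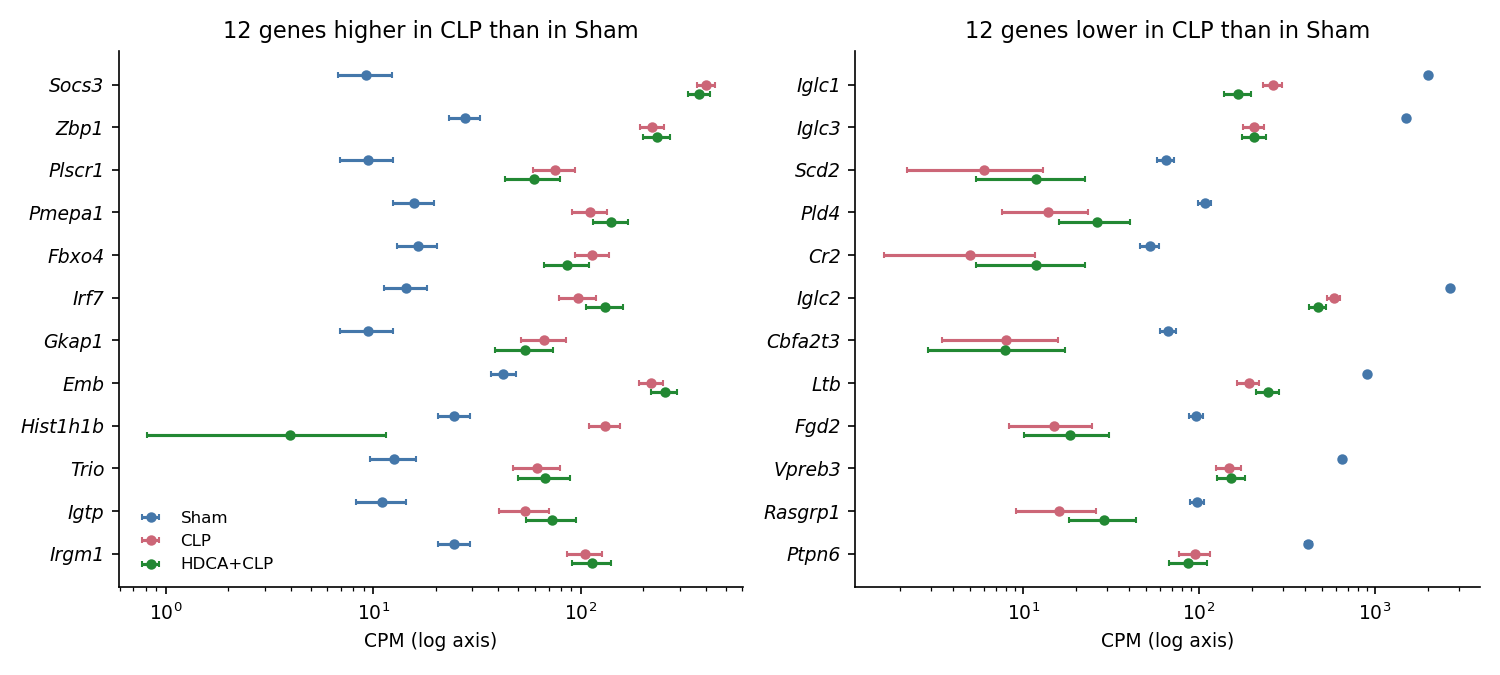
Level in the members (CPM, log axis) of the 12 genes furthest above and the 12 furthest below Sham in CLP, in each library, with exact Poisson 95% intervals. For every gene shown except Hist1h1b, HDCA+CLP lies on the same side of Sham as CLP.

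Other genes at the high end in CLP have less settled roles in B cells. Pmepa1, an inhibitor of TGF-beta signalling, stood at 15.8 CPM in Sham, 111 CPM in CLP and 139.6 CPM in HDCA+CLP, and Emb, a cell adhesion protein of the immunoglobulin superfamily, at 42.4 CPM in Sham, 218 CPM in CLP and 253 CPM in HDCA+CLP. The log2 ratio of Emb was 2.36 with all members and 3.00 without cells holding other-cell transcripts, and the T cell gate held 953 CPM of it in CLP. Fbxo4, a subunit of a ubiquitin ligase, stood at 16.4 CPM in Sham, 113 CPM in CLP and 85.6 CPM in HDCA+CLP, Gkap1, a protein that binds cGMP-dependent kinase, at 9.39 CPM in Sham, 66.7 CPM in CLP and 54 CPM in HDCA+CLP and Trio, a guanine nucleotide exchange factor, at 12.6 CPM in Sham, 61.7 CPM in CLP and 67.2 CPM in HDCA+CLP. In both CLP libraries these 5 genes lay above Sham. Satb1 and Stat4, which were lower in Sham cells without than with Fcer2a, were higher in CLP, with log2 ratios of 1.72 and 1.52, at 118 CPM in Sham, 389 CPM in CLP and 622 CPM in HDCA+CLP for Satb1.

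Transcripts of B cell identity were lower in CLP. Of 20 B lineage genes outside the rule, 19 were lower and 11 past 2-fold, with a median log2 ratio of -1.09, and it was -1.0 without cells holding other-cell transcripts. Over all genes 13.1% were past 2-fold lower. Pax5 stood at 348 CPM in Sham, 124 CPM in CLP and 237 CPM in HDCA+CLP, and Cd37, a tetraspanin of B cells, at 1099.9 CPM in Sham, 424 CPM in CLP and 519 CPM in HDCA+CLP. Ralgps2, an exchange factor for Ral GTPases, stood at 415 CPM in Sham, 117 CPM in CLP and 150.2 CPM in HDCA+CLP. Fcrla, an intracellular Fc receptor-like protein, was the exception, at 258 CPM in Sham, 258 CPM in CLP and 286 CPM in HDCA+CLP. Pou2af1, a B cell co-activator, was close to level between Sham and CLP, at 175 CPM in Sham, 170.2 CPM in CLP and 248 CPM in HDCA+CLP. Ebf1 was lower by less than 2-fold, at 1587 CPM in Sham, 945 CPM in CLP and 1196 CPM in HDCA+CLP. CLP members also had fewer UMIs of the 3 genes the rule used, and whether B cells with low levels were missed by the rule was not tested.

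Light chain genes were among the lowest. Iglc1 stood at 1996 CPM in Sham, 262 CPM in CLP and 166 CPM in HDCA+CLP, Iglc2 at 2668 CPM in Sham, 582 CPM in CLP and 472 CPM in HDCA+CLP and Iglc3 at 1503 CPM in Sham, 205 CPM in CLP and 205 CPM in HDCA+CLP. These are near-identical copies, and how their reads were divided is uncertain. In CLP 1 cell held 121 of the 263 Iglc1 UMIs. Igkc, the kappa constant region, stood at 10706 CPM in Sham, 4355 CPM in CLP and 5460.2 CPM in HDCA+CLP, and Ighm, the constant region of IgM, at 3968 CPM in Sham, 2347 CPM in CLP and 2508 CPM in HDCA+CLP. Of 8 measured immunoglobulin constant regions, 5 were past 2-fold lower and 0 past 2-fold higher in CLP, with a median log2 ratio of -1.23. The shares over all genes were 13.1% lower and 5.14% higher. Vpreb3, a chaperone of the pre-B cell receptor, stood at 651 CPM in Sham, 147 CPM in CLP and 153 CPM in HDCA+CLP, where 1 cell held 27% of the CLP UMIs.

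Genes of antigen presentation by MHC class II and of B cell receptor signalling were mostly lower too. Of 13 measured class II genes 12 were lower, 4 past 2-fold, with a median log2 ratio of -0.70. Cd74 stood at 14343 CPM in Sham, 7075 CPM in CLP and 8649 CPM in HDCA+CLP, H2-DMb2, a chain of the peptide exchange factor, at 425 CPM in Sham, 158 CPM in CLP and 163 CPM in HDCA+CLP, and Ciita, the class II transactivator, at 151 CPM in Sham, 59.7 CPM in CLP and 98.8 CPM in HDCA+CLP. Cd83, which is also on that list, went the other way, at 38.8 CPM in Sham, 112 CPM in CLP and 83 CPM in HDCA+CLP. Of 22 measured receptor signalling genes 8 were past 2-fold lower and 0 higher. For both lists the shares over all genes were 13.1% past 2-fold lower and 5.14% higher. Ptpn6, the phosphatase SHP-1 that dampens receptor signals, stood at 418 CPM in Sham, 94.6 CPM in CLP and 86.9 CPM in HDCA+CLP, and Cr2 at 52.6 CPM in Sham, 4.98 CPM in CLP and 11.9 CPM in HDCA+CLP. Rasgrp1, an activator of Ras, stood at 97.3 CPM in Sham, 15.9 CPM in CLP and 29 CPM in HDCA+CLP. Fcgr2b, the inhibitory IgG receptor, was higher, at 72.8 CPM in Sham, 115 CPM in CLP and 134 CPM in HDCA+CLP.

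Follicular genes and genes of trafficking were lower in CLP as well. Of 9 measured follicular genes 7 were past 2-fold lower in CLP, with a median log2 ratio of -1.16, and 4 of 9 were so in HDCA+CLP, with a median of -0.75. When all resting B cells of Sham, with and without Fcer2a, were taken as the Sham set, 8 of 10 were past 2-fold lower in CLP. One of the 8 was Fcer2a, which the rule fixed at 0 in the CLP members. In that setting 6.58% of 10302 genes were past 2-fold higher and 12.7% lower. Icosl stood at 43 CPM in Sham, 8.96 CPM in CLP and 18.4 CPM in HDCA+CLP, and Gpr183, the oxysterol receptor that positions B cells in follicles, at 103 CPM in Sham, 32.9 CPM in CLP and 38.2 CPM in HDCA+CLP. With the members as the Sham set, 13.1% of all genes were past 2-fold lower in CLP and 12.6% in HDCA+CLP. Of 16 trafficking genes 7 were past 2-fold lower in CLP. They included Itgb7, an integrin chain for homing to the gut, at 67 CPM in Sham, 14.9 CPM in CLP and 9.22 CPM in HDCA+CLP, S1pr1, the sphingosine phosphate receptor for exit from lymphoid tissue, at 139.7 CPM in Sham, 69.7 CPM in CLP and 77.7 CPM in HDCA+CLP, and Ccr7, the chemokine receptor for entry into T cell zones, at 252 CPM in Sham, 115 CPM in CLP and 191 CPM in HDCA+CLP.

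Marginal zone genes were mostly lower in CLP, and the balance of B-1 genes depended on the cells compared. Of 12 marginal zone genes 6 were past 2-fold lower in CLP than in Sham and 0 higher, against 13.1% and 5.14% of all genes. Their median log2 ratio was -0.84. With all resting B cells of Sham as the Sham set, 4 of 12 were past 2-fold lower and 2 higher, with a median of -0.62. Notch2 stood at 66.2 CPM in Sham, 15.9 CPM in CLP and 43.5 CPM in HDCA+CLP. Zbtb32 had 56 UMIs in the Sham members, 1 in CLP and 0 in HDCA+CLP, a log2 ratio of CLP over Sham of -3.49 (-8.82 to -0.95). Bhlhe41 stood at 28.6 CPM in Sham, 9.96 CPM in CLP and 2.63 CPM in HDCA+CLP. Both were thus lower in the CLP libraries than in Sham. The B-1 list had 5 of 13 genes past 2-fold higher and 3 lower, with a median of 0.43. Without cells holding other-cell transcripts it had 3 of 12 higher and 3 lower, with a median of 0.02. Among B-1 genes with at least 20 UMIs in Sham alone, 3 of 11 were past 2-fold higher and 3 lower with all members. Without cells holding other-cell transcripts, 1 of 10 such genes was higher and 3 were lower, with a median of -0.36. With all resting B cells of Sham as the Sham set, 7 of 15 B-1 genes were past 2-fold higher and 2 lower. The median was then 0.92, with no cells removed. Ctla4, an inhibitory receptor that is on the list but is better known from T cells, had 37 UMIs in CLP, all in 10 cells, against 2 in Sham and 2 in HDCA+CLP.

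Receptors for survival factors were lower and some activation genes higher. Tnfrsf13c, the BAFF receptor, stood at 299 CPM in Sham, 85.6 CPM in CLP and 93.5 CPM in HDCA+CLP, Tnfrsf13b, the receptor TACI, at 204 CPM in Sham, 43.8 CPM in CLP and 56.6 CPM in HDCA+CLP, and Ltb, lymphotoxin beta, at 905 CPM in Sham, 191 CPM in CLP and 245 CPM in HDCA+CLP. Bcl2l11, the pro-apoptotic protein BIM, stood at 27.8 CPM in Sham, 101 CPM in CLP and 155 CPM in HDCA+CLP. Of 17 survival genes measured, 4 were past 2-fold higher and 5 lower in CLP. Over all genes the shares were 5.14% and 13.1%, which also apply to the lists that follow. Of 22 activation and NF-kappaB genes 6 were past 2-fold higher and 0 lower. Cd86, a co-stimulatory ligand for T cells, stood at 25.2 CPM in Sham, 89.6 CPM in CLP and 101 CPM in HDCA+CLP, and Bcl3, a nuclear partner of NF-kappaB, at 23.8 CPM in Sham, 89.6 CPM in CLP and 123 CPM in HDCA+CLP. Irf4, Egr2, Fabp5 and Bcl2a1d could not be read, since the rule capped them. Klf9, a transcription factor induced by glucocorticoids, stood at 18.6 CPM in Sham, 79.6 CPM in CLP and 84.3 CPM in HDCA+CLP, and 3 of 14 glucocorticoid genes were past 2-fold higher and 1 lower. Of that list Tsc22d3, the leucine zipper protein GILZ, stood at 977 CPM in Sham, 609 CPM in CLP and 690.3 CPM in HDCA+CLP.

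Scd2, Pld4, Cbfa2t3 and Fgd2 completed the 12 genes ranked lowest in CLP. Scd2, a fatty acid desaturase, stood at 64.8 CPM in Sham, 5.97 CPM in CLP and 11.9 CPM in HDCA+CLP, and Pld4, an endosomal exonuclease that degrades single-stranded nucleic acid, at 108 CPM in Sham, 13.9 CPM in CLP and 26.3 CPM in HDCA+CLP. Cbfa2t3, a transcriptional co-repressor, stood at 66.8 CPM in Sham, 7.96 CPM in CLP and 7.9 CPM in HDCA+CLP, and its log2 ratio of CLP over Sham was -3.07 with and -3.84 without cells holding other-cell transcripts. Fgd2, an exchange factor for Cdc42, stood at 96.5 CPM in Sham, 14.9 CPM in CLP and 18.4 CPM in HDCA+CLP. HDCA+CLP lay below Sham for each of these 4 genes.

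Most measured cell cycle genes and the histone genes Hist1h1b and Hist1h2ap were higher in CLP than in Sham. Of 11 measured cell cycle genes 5 were past 2-fold higher in CLP over Sham and 0 lower, where 5.14% of all genes were higher and 13.1% lower. Of the 8 with at least 20 UMIs in Sham alone, 7 were higher and 3 past 2-fold. The others were measured only through CLP. Hist1h1b, a linker histone made in S phase, stood at 24.6 CPM in Sham, 130.4 CPM in CLP and 3.95 CPM in HDCA+CLP, and Hist1h2ap, a histone H2A gene, at 142 CPM in Sham, 292 CPM in CLP and 19.8 CPM in HDCA+CLP. Of the 131 Hist1h1b UMIs in CLP, 97.7% came from 3 cells, and of the 293 Hist1h2ap UMIs 92.8% did. In cells of 2000 to 5000 UMIs the log2 ratio of Hist1h1b was -2.81, against 2.41 in all members. Hist1h1e, another linker histone, was lower in CLP than in Sham, at 218 CPM in Sham, 126 CPM in CLP and 36.9 CPM in HDCA+CLP. Histone genes of this cluster are near-identical copies, so how their reads were divided is uncertain. At least 3 UMIs of the mitotic genes Mki67, Top2a, Birc5, Ccnb2 and Ube2c were held by 1 of 1068 members in Sham, 3 of 254 in CLP (1.18%, 0.244 to 3.41) and 0 of 263 in HDCA+CLP. The 3 CLP cells held 83.5% of that library's mitotic UMIs.

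Members of the HDCA+CLP library differed less from those of CLP than either did from Sham in the number of genes past 2-fold. Of 6561 genes measured, 222 (3.38%) were more than 2-fold higher and 246 (3.75%) more than 2-fold lower in HDCA+CLP, and the median log2 ratio was 0.07. Without cells holding other-cell transcripts 3.72% of 6294 genes were higher and 1.84% lower, so the lower count depended on the 8 CLP and 2 HDCA+CLP cells that were removed. Scaling moved the balance of both directions too, with 166 higher and 314 lower under median-of-ratios size factors, and 259 and 188 when cells were weighted equally. Genes of the AP-1 family ranked among the highest in HDCA+CLP. Fosb, a subunit of the AP-1 transcription factor, was at 50 CPM in Sham, 37.8 CPM in CLP and 119.9 CPM in HDCA+CLP, a log2 ratio of HDCA+CLP over CLP of 1.66 (1.10 to 2.25). Fos, of the same family, was at 127 CPM in Sham, 93.6 CPM in CLP and 228 CPM in HDCA+CLP, a log2 ratio of 1.28 (0.91 to 1.66). Of 16 immediate early genes 14 were higher in HDCA+CLP and 2 were past 2-fold higher and 1 lower, with a median of 0.27. Dusp1, a phosphatase of MAP kinases, was at 167 CPM in Sham, 210.1 CPM in CLP and 331 CPM in HDCA+CLP.

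Kcnq1ot1, a nuclear antisense RNA of an imprinted region, was at 243 CPM in Sham, 106 CPM in CLP and 261 CPM in HDCA+CLP, with CLP as the low library. No source used here says whether counting used strand, so its reads cannot be told from those of the gene it overlaps. Malat1, another nuclear RNA and a sign of nuclear against cytoplasmic RNA, was at 24594 CPM in Sham, 22561 CPM in CLP and 37316 CPM in HDCA+CLP, highest in HDCA+CLP, and the mitochondrially encoded mt-Co3, a subunit of cytochrome c oxidase, was at 9981 CPM in Sham, 10346 CPM in CLP and 7579.8 CPM in HDCA+CLP, lowest there. These RNA quality signs moved with the group, and their part in the other differences was not tested. Trim34a, a gene of the interferon-inducible TRIM family, was at 109.9 CPM in Sham, 22.9 CPM in CLP and 67.2 CPM in HDCA+CLP, Tnrc6a, a protein of microRNA silencing, at 109.5 CPM in Sham, 78.7 CPM in CLP and 175 CPM in HDCA+CLP and Zfp445, a zinc finger protein of imprinting control, at 35.2 CPM in Sham, 31.9 CPM in CLP and 81.7 CPM in HDCA+CLP.

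Few interferon or B cell identity genes differed by 2-fold between HDCA+CLP and CLP. Against 3.38% and 3.75% of all genes past 2-fold higher and lower, the counts for the type I interferon and B lineage lists do not stand apart. Of 15 interferon-gamma genes 14 were higher, 2 past 2-fold, with a median log2 ratio of 0.43 both with and without cells holding other-cell transcripts. Iigp1, an immunity-related GTPase, stood at 0.2 CPM in Sham, 19.9 CPM in CLP and 56.6 CPM in HDCA+CLP, and Gbp5, a guanylate-binding protein, at 17.8 CPM in Sham, 27.9 CPM in CLP and 60.6 CPM in HDCA+CLP. Of 33 type I interferon genes 23 were higher, 1 past 2-fold higher and 2 lower, with a median of 0.21. Of the 24 with at least 20 UMIs in CLP alone, 14 were higher, 0 past 2-fold, and the median was 0.08. Isg15, a ubiquitin-like modifier, was one of the genes that were lower, at 13.4 CPM in Sham, 52.8 CPM in CLP and 18.4 CPM in HDCA+CLP. Of 20 B lineage genes 15 were higher and 0 past 2-fold, with medians of 0.32 with and 0.17 without cells holding other-cell transcripts. Pax5 had a log2 ratio of 0.93 (0.59 to 1.27), and Ccr7 had 0.73 (0.36 to 1.09). Malt1, a protease of antigen receptor signalling, had 1.01 (0.59 to 1.44), and Notch2 had 1.45 (0.55 to 2.41). Notch2 had fewer than 20 UMIs in CLP, so it was measured only through HDCA+CLP, where it was higher. These intervals cover counting error only.

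Genes of the respiratory chain were lower in HDCA+CLP. All but 1 of 25 nuclear genes of oxidative phosphorylation were lower than in CLP, none past 2-fold, with a median log2 ratio of -0.43. Without cells holding other-cell transcripts 21 were lower, with a median of -0.26. Cox5a, a subunit of cytochrome c oxidase, stood at 220.5 CPM in Sham, 318 CPM in CLP and 192 CPM in HDCA+CLP, and Uqcr10, a subunit of complex III, at 199 CPM in Sham, 259 CPM in CLP and 154 CPM in HDCA+CLP.

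The B-1 and memory lists had low medians in HDCA+CLP over CLP that were not seen once the 8 CLP and 2 HDCA+CLP cells with other-cell transcripts were left out. Of 10 B-1 genes 6 were past 2-fold lower, against 3.75% of all genes (1.84% without those cells), with a median log2 ratio of -1.34. Without cells holding other-cell transcripts 2 of 9 were past 2-fold lower and 1 higher, with a median of 0.17. The memory list went from a median of -0.82 to 0.02. The NK cell list summed to 1178 CPM in CLP and 9.22 in HDCA+CLP with all members, and to 44.2 and 9.31 without those cells. The monocyte list summed to 1024 and 26.4 CPM, and to 48.8 and 25.3 without them. Emp3, a membrane protein of leukocytes, was at 279 CPM in Sham, 307 CPM in CLP and 85.6 CPM in HDCA+CLP, with log2 ratios of -1.84 with and -1.45 without those cells. Crip1 was at 1083 CPM in Sham, 502 CPM in CLP and 184 CPM in HDCA+CLP, with -1.44 and -1.05, and Ahnak was at 108 CPM in Sham, 129 CPM in CLP and 46.1 CPM in HDCA+CLP, with -1.49 and -1.07. Emp3, Crip1 and Ahnak were thus lower in both settings, by a smaller ratio without those cells.

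Hist1h1b, Hist1h2ap and Hist1h1e were the other genes that were lowest in HDCA+CLP against CLP, with log2 ratios of -5.04, -3.88 and -1.78. With no limit on activation genes these turned to 0.21 for Hist1h1b and 0.27 for Hist1h1e, and to -0.43 for Hist1h2ap. All 9 measured cell cycle genes were lower and 6 past 2-fold, with a median of -1.18, where 3.75% of all genes were past 2-fold lower. Of these genes 8 reached the minimum of UMIs in CLP alone, the library where they were higher. The list has 18 genes, so the count cannot tell whether the list as a whole was lower. The 3 CLP cells with at least 3 mitotic UMIs held 83.5% of that library's mitotic UMIs. In CLP the 3 highest cells held 97.7% of the UMIs of Hist1h1b and 92.8% of those of Hist1h2ap.

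**Figure D4:**
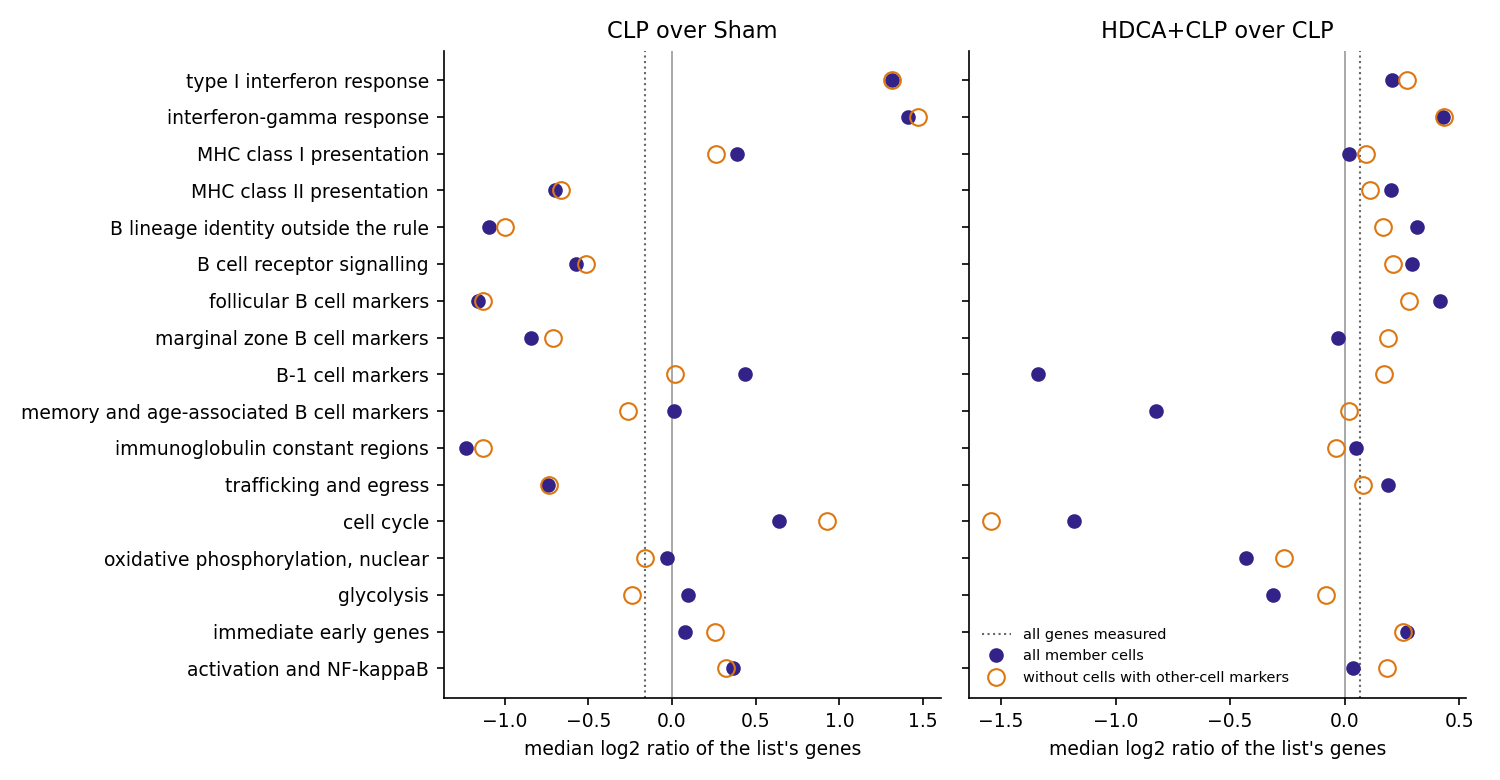
Median log2 ratio of the measured genes of 17 lists, for CLP over Sham (left) and HDCA+CLP over CLP (right), with all members (filled) and without cells with at least 3 UMIs of a neutrophil, NK cell, monocyte or platelet list (open). The dotted line is the median of all measured genes; the interferon lists lie at 1.31 and 1.41 on the left, and the B-1 list moves from -1.34 to 0.17 on the right.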

How the data were processed

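The authors deposited, for each of 3 libraries, a matrix of UMI counts that were not normalized. Per the submitters' processing notes, Cell Ranger 5.0.1, Seurat 4.0.6 and R 4.0.3 were used with build mm39. The Sham matrix has 7159 barcodes with 42427093 UMIs, that of CLP 11387 with 87031721, and that of HDCA+CLP 12205 with 95178381, and each lists 31053 genes. No annotation of cells by the authors was used.

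Here the counts of member cells were summed by library and given per 1e+06 UMIs (CPM). Log2 ratios have exact conditional binomial 95% intervals, levels exact Poisson and shares exact Clopper-Pearson intervals. PCR duplicates are removed by UMIs, and intervals cover counting error only. A count of 0 was set to a floor of 3 UMIs over the set. A gene was measured with at least 20 UMIs over both sets, and called past 2-fold. Cells are not replicates, and no test, p-value or doublet caller was used. Interval coverage was tested on simulated counts for CLP over Sham with 200 changed genes, where 96.2% of the intervals of 9212 genes held the true ratio and 4% of unchanged genes passed 2-fold. The simulation drew independent Poisson counts from the pooled profile of both libraries, with no clustering of UMIs in cells. It therefore checks the arithmetic alone, and neither value carries over to genes whose UMIs came from few cells.

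Named genes were the 12 in each direction for CLP over Sham, the 6 for HDCA+CLP over CLP and the 8 for Sham cells without over those with Fcer2a, ranked by the interval bound nearest to 0 where a gene reached 50 UMIs over both sets and 50 CPM in the higher one. Left out were the genes of the rule, those encoding ribosomal proteins, haemoglobins, immunoglobulin variable regions and T cell receptors, mitochondrially encoded genes, predicted gene models, Xist and the genes of the Y chromosome, as were genes under 20% of their level in a gate of other cells. From each of 35 lists the 2 largest and the 2 smallest members could be named. Any other gene was picked with its values known. Some genes of the lists are not reported here by name. The members and lists were chosen with earlier results of these data known. Python 3.11.15, NumPy 2.4.6, SciPy 1.17.1, pandas 2.3.3 and matplotlib 3.10.9 were used. Of the alternatives tried, 11 were planned and 4 were added after seeing the data.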

Additional observations from a re-analysis of the deposited data

How the results depend on the processing

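Of 841 list medians recomputed under 15 alternatives, 730 stayed within 1.5-fold of the reported ratio with the same sign. The sign changed for 98, of which 2 were of medians past 2-fold. Of 611 values of named genes 565 stayed and 5 changed sign. Among these were the B-1 median of HDCA+CLP over CLP, at 0.17 without cells holding other-cell transcripts and 0.22 in cells of 2000 to 5000 UMIs, and Hist1h1b of CLP over Sham, at -2.81 in the same depth window. With no limit on activation genes, Hist1h1b and Hist1h1e of HDCA+CLP over CLP were 0.21 and 0.27. In Sham cells of at least 7000 UMIs, Iglc1 and Fam129c were at -0.38 and -0.52, and 238 genes were past 2-fold lower without Fcer2a. A mitochondrial limit of 5% gave shares of 11.1%, 0.967% and 1.67% in Sham, CLP and HDCA+CLP, so HDCA+CLP then lay above CLP, and 355 genes higher and 384 lower in HDCA+CLP over CLP. At least 6 B cell UMIs gave 1.84% in CLP and 1.68% in HDCA+CLP. In cells of 2000 to 5000 UMIs shares were 25%, 6.68% and 7.83%, with 109 genes lower in HDCA+CLP over CLP and 139 higher in Sham cells without Fcer2a. With no activation limit 811 genes were higher in CLP over Sham, and 343 higher and 521 lower in HDCA+CLP over CLP. Fcer2a read after thinning gave a Sham share of 22.9%, a zero share of 58.1% and 58 genes lower without Fcer2a. Leaving out cells with other-cell transcripts gave 116 genes lower in HDCA+CLP over CLP and 143 higher in Sham cells without Fcer2a. With a minimum of 100 UMIs, higher and lower genes numbered 158 and 501 in CLP over Sham, 20 and 47 in HDCA+CLP over CLP, 174 and 492 in HDCA+CLP over Sham, and 45 and 5 in Sham cells without over those with Fcer2a. Fewer genes were tested, and the shares past 2-fold fell too. They were 2.80% higher and 8.88% lower in CLP over Sham, and 0.908% and 2.13% in HDCA+CLP over CLP. In Sham cells without over those with Fcer2a they were 0.594% and 0.066%. With all resting Sham B cells as the Sham set 715 genes were higher in HDCA+CLP. Where no construction shows it, the cause was not tested. Depth limits low genes in CLP and HDCA+CLP, whose members hold 1004418 and 759127 UMIs. No paired analysis was possible because each group has 1 library.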

Other observations

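Genes of innate sensing in B cells were measured but not compared above. Cd180, a Toll-like receptor homologue of B cells, stood at 79.6 CPM in Sham, 14.9 CPM in CLP and 13.2 CPM in HDCA+CLP, and Tlr7, a sensor of single-stranded RNA, at 12.4 CPM in Sham, 24.9 CPM in CLP and 32.9 CPM in HDCA+CLP. The list of Toll-like receptors and adaptors as a whole had 1 of 15 measured genes past 2-fold higher and 3 lower in CLP over Sham, with a median log2 ratio of 0.02. Without cells holding other-cell transcripts it had 3 higher and 4 lower. Of 14 genes of the Notch2 pathway, 1 was past 2-fold higher and 3 were lower. Over all genes 5.14% were past 2-fold higher and 13.1% lower in CLP, and 4.34% and 14% without cells holding other-cell transcripts. With all members, the counts of both lists do not stand apart from these shares. Adam10, the protease that cleaves Notch receptors and also sheds CD23, stood at 41.4 CPM in Sham, 19.9 CPM in CLP and 38.2 CPM in HDCA+CLP, and Notch1 at 9.79 CPM in Sham, 20.9 CPM in CLP and 21.1 CPM in HDCA+CLP.

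Stress and metabolic lists had small medians. Of 9 heat shock chaperone genes, all 9 were slightly higher in Sham cells without than with Fcer2a once cells holding other-cell transcripts were left out, with a median log2 ratio of 0.19 and none past 2-fold. Between CLP and Sham, 1 of 9 was past 2-fold lower. That gene was Hsph1, an HSP70 co-chaperone, at 27.8 CPM in Sham, 6.97 CPM in CLP and 9.22 CPM in HDCA+CLP. Glycolysis genes had a median of 0.09 in CLP over Sham with all members and -0.24 without cells holding other-cell transcripts, and cholesterol and lipid synthesis genes 0.34 and -0.40.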
